A study of Ovis aries with 23 samples.

Results

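The pars tuberalis (PT) of sheep on their first and on their seventh day of long photoperiod (LP) was compared by RNA-seq. All 6 samples labelled LP day 1 and all 6 labelled LP day 7 were taken, 12 of the 23 samples in the series, and every expressed gene was tested. The animals were neutered male Scottish blackface sheep that had been held on short photoperiod (SP) before the move to LP, so both groups were already on long days and are told apart in the labels by how long they had been there. The other samples, 5 on SP and 6 at LP day 28, give the level of a gene before and after these days. They entered no test here except the alternative that fitted all groups together. Nothing in the labels says whether each sample is a separate animal, so p-values measure the spread between these samples, which may be technical.

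The PT is the thin part of the anterior pituitary that lies against the hypothalamus. Its thyrotroph cells carry melatonin receptors and read day length from the duration of the nightly melatonin signal. On long days they make thyroid-stimulating hormone, a dimer of the common subunit CGA and the specific subunit TSHB, under control of the transcriptional co-activator EYA3. The hormone acts on tanycytes in the adjacent hypothalamus, which then convert thyroid hormone to its active form. The comparison asks which genes differ between the acute response to the first long day and the state reached within a week.

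Each sample had counts for 25197 genes. Total counts lay between 307952 and 3674567 at LP day 1, with a median of 2925984.5, and between 2741520 and 3594414 at LP day 7, with a median of 3444196. The lowest total belongs to LP day 1 sample 4. A level of 3 counts was used as the limit of detection. Scaled by total counts without normalization, it equals 9.74 CPM in that sample and 1.62 CPM or less in the other LP day 1 samples. At LP day 7 it is 1.09 CPM or less on that scale. Gene levels below are in CPM scaled by normalized library size, where 3 counts in LP day 1 sample 4 equal 8.90 CPM. The limit covers counting error only. LP day 1 samples 3 and 4 were more alike than any other samples of a group, with a chi-square per gene of 1.15 over 11765 genes (chi-square test of counts, unadjusted p = 1.4e-29), where 1 is expected from sampling noise alone. The next lowest value, 1.81, also involved the shallow sample 4. Samples 3 and 4 differed by more than sampling noise and were kept as 2 samples, but this does not show that they come from separate animals, which the sources used here do not say. Counted as 1 sample, they left 1 of the 3 calls below, DCT. LP day 7 sample 3 stood apart in its interferon-induced genes, described with that list. The file headers number the alignment folders in 2 sets, 1 for samples 1 to 3 and 1 for samples 4 to 6 of both days, and values within each set are given beside the main results.

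After the filter on low counts 14897 genes were tested. A total of 3 genes passed a false discovery rate (FDR) of 0.05 (edgeR's quasi-likelihood test, Benjamini-Hochberg adjustment), 0.0201% of those tested. All 3, DCT, VMO1, and ADAMTS16, rose from LP day 1 to LP day 7. The genes that fell numbered 0 (0%) in edgeR's quasi-likelihood test, where 411 genes were lower at an unadjusted p under 0.05. DESeq2 called 6 lower genes, edgeR's exact test 5 with gene-wise dispersions and 39 with a common dispersion, and limma with voom 0. Not all of these genes are named here. NOV, at a log2 fold change of -1.29, had the smallest FDR of the lower genes in DESeq2 (0.00163) and the gene-wise exact test (0.00427). Its groups overlapped, and its quasi-likelihood FDR was 0.202. At an unadjusted p under 0.05 the test held 829 genes (5.56%), 418 higher (2.81%) and 411 lower (2.76%) at LP day 7. This lies near the share of 0.05 that such a cut-off passes where no gene differs. The groups did not overlap for 40 genes (0.269%), 20 higher (0.134%) and 20 lower (0.134%). Among this many genes some are set apart by chance, so lack of overlap describes the values here and is not a test. The median log2 fold change over all genes tested was -0.0040.

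**Figure D1:**
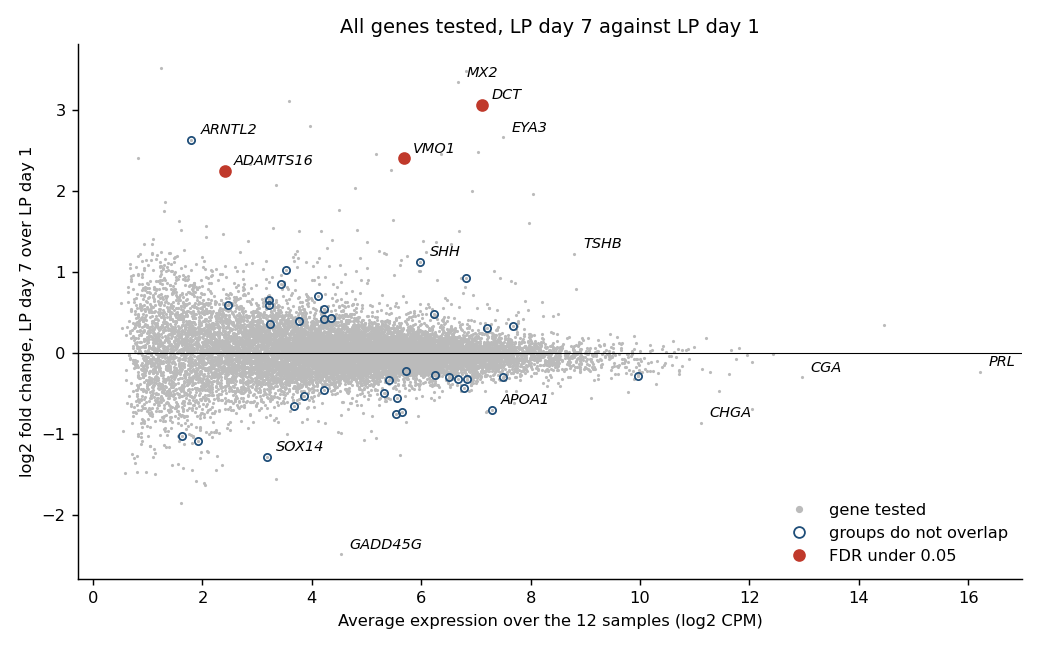
Log2 fold change of LP day 7 over LP day 1 against average expression (log2 CPM over the 12 samples) for each of the 14897 genes tested. The 3 genes past the FDR threshold (red) lie above 0, at 2.25 to 3.07, while the open circles mark 40 genes whose groups do not overlap, 20 on either side of 0.

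DCT (ENSOARG00000000618), dopachrome tautomerase, an enzyme of melanin synthesis, differed most clearly. Its lowest, median, and highest levels were 13.2, 27.4, and 53.9 CPM at LP day 1, against 160, 232, and 338 CPM at LP day 7. Every LP day 7 sample stood above every LP day 1 sample. This is a log2 fold change of 3.07 and a fold of 8.38 (FDR 4.28e-05 by the edgeR test above, standard error 0.28). The gene had 11 to 148 counts per sample at LP day 1, against 531 to 985 at LP day 7. It passed the threshold with each of the 12 samples left out in turn, at log2 fold changes of 2.92 to 3.43, with the similar LP day 1 samples 3 and 4 summed (3.07, edgeR FDR 0.000352) or left out (3.02, edgeR FDR 0.00394), and also in samples 1 to 3 alone (3.19, FDR 0.00717) and in samples 4 to 6 alone (2.89, FDR 0.0252, same edgeR test). On SP the gene lay between 1.69 and 22.9 CPM and at LP day 28 between 49.9 and 110 CPM, so LP day 7 held the highest levels of the 4 groups.

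In the list of melanin synthesis and pigment cell genes, 4 of the 13 had a symbol paired with an identifier and were tested. Of these 1 of 4, DCT, passed at the FDR, beside 0.278% of all 1080 tested genes with a symbol. The other members were not past an unadjusted p of 0.05. TYRP1, another melanosomal enzyme, had 11.7 to 20.6 CPM at LP day 1, against 9.93 to 20.6 CPM at LP day 7 (log2 fold change -0.15, standard error 0.21). KIT, a receptor that melanocytes and other cells use, stood at -0.49 (standard error 0.31). SOX10, a transcription factor of neural crest cells and glia, stood at -0.02 (standard error 0.38). The median of the 4 log2 fold changes was -0.08. In bulk tissue, fewer cells of a type and less RNA per cell cannot be told apart.

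VMO1 (ENSOARG00000007112) encodes a secreted protein named after the outer layer of the egg's vitelline membrane. It had 5.34, 16.4, and 23.7 CPM as its lowest, median, and highest level at LP day 1, against 29.2, 68.8, and 152 CPM at LP day 7. No LP day 7 sample overlapped the LP day 1 range. This gave a log2 fold change of 2.41 (FDR 0.0301 by edgeR, standard error 0.37), a fold of 5.30. The samples of LP day 28, at 145 to 314 CPM, lay higher by their median of 272 CPM and overlapped the highest LP day 7 sample. Those on SP, at 8.75 to 15.6 CPM, lay within the range of LP day 1. The call passed in 4 of the 12 fits with a sample left out, those without LP day 1 sample 5 or LP day 7 sample 1, 2, or 3. In the other 8 the FDR reached 0.138, and the log2 fold change over all 12 fits was 2.12 to 2.63. VMO1 did not pass with LP day 1 samples 3 and 4 summed (2.43, edgeR FDR 0.0666) or left out (2.55, edgeR FDR 0.229), nor with the alignment set as a covariate over all 12 samples (2.40, edgeR FDR 0.0521). The value was 2.63 in samples 1 to 3 alone (FDR 1.00) and 2.12 in samples 4 to 6 alone (FDR 0.0252).

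ADAMTS16 (ENSOARG00000015446), a secreted metalloprotease of the extracellular matrix, had few counts. Its levels were 0, 1.29, and 1.87 CPM as lowest, median, and highest at LP day 1, which are 0 to 7 counts, and 4.45, 6.08, and 10.2 CPM at LP day 7, which are 15 to 40 counts. The groups did not overlap, but the only 0, in LP day 1 sample 4, allows up to 8.90 CPM, within the range of LP day 7. Between the days the log2 fold change was 2.25 (FDR 0.0301 by edgeR, standard error 0.36). SP samples had 0.265 to 2.02 CPM and LP day 28 samples 0.484 to 3.08 CPM, so all 6 samples of LP day 7 lay above every sample of the other 3 groups. The call passed in 3 of the 12 fits with a sample left out, those without LP day 1 sample 5 or LP day 7 sample 2 or 3. In the other 9 the FDR reached 0.138. ADAMTS16 did not pass with LP day 1 samples 3 and 4 summed (2.24, edgeR FDR 0.0666) or left out (2.24, edgeR FDR 0.229), nor with the alignment set as a covariate (2.23, edgeR FDR 0.0636). Its log2 fold change was 2.10 in samples 1 to 3 alone (FDR 1.00) and 2.42 in samples 4 to 6 alone (FDR 0.719).

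**Figure D2:**
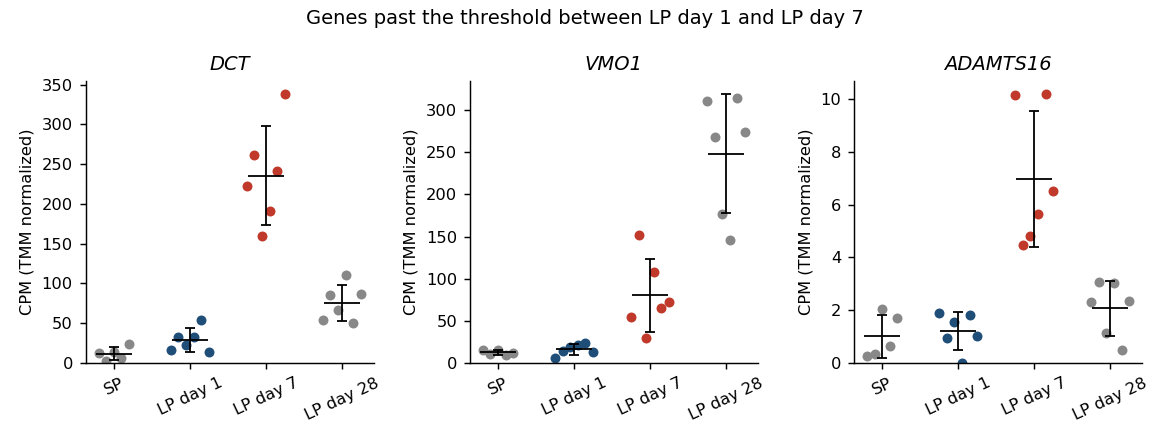
Levels of DCT, VMO1, and ADAMTS16 in CPM (normalized over all 23 samples) in the 5 SP and 6 LP day 1, 7, and 28 samples. Points are samples, the wide bar is the mean, and whiskers are 1 SD. For all 3 genes the red LP day 7 points lie above the blue LP day 1 points, DCT at 160 to 338 against 13.2 to 53.9 CPM. At LP day 28 the median of VMO1 is higher, at 272 CPM, and those of DCT and ADAMTS16 are lower than at LP day 7.

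The genes that follow had a quasi-likelihood FDR above 0.05 and are given as values. DESeq2 and edgeR's exact test with gene-wise dispersions passed some of them, named beside their values, and more passed where that exact test used a common dispersion. A simulated data set had 200 of 14722 genes changed. There 12.4% of DESeq2 calls were false, 14.9% of gene-wise exact test calls, and 33.3% with a common dispersion. The quasi-likelihood test had 6.94%. Of the genes changed 2-fold in that data set, it recovered 66% and DESeq2 70%. The exact test recovered 75% with gene-wise dispersions and 82% with a common one. Whether these rates hold for the calls in the sheep samples was not tested. Gene symbols were known for 1080 of the genes tested. These are genes that the study listed, chosen in part on these same samples, and they hold more low p-values than the rest. Of the 1080, 182 (16.9%) had an unadjusted p under 0.05, 129 higher (11.9%) and 53 lower (4.91%) at LP day 7. The groups did not overlap for 14 of them (1.3%), 10 higher (0.926%) and 4 lower (0.37%). Their median log2 fold change was 0.05. Counts in the lists below are to be read against these shares.

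The thyrotroph genes were examined next. Of 14 genes of photoperiod signalling, 9 were paired and tested, and 2 were higher and 1 lower at an unadjusted p under 0.05. The list had a median log2 fold change of 0.22. TSHB (ENSOARG00000020127), the hormone-specific subunit, had 174, 253, and 394 CPM at LP day 1, against 289, 559, and 1151 CPM at LP day 7 as lowest, median, and highest level. A total of 4 of the 6 LP day 7 samples stood above all LP day 1 samples. The log2 fold change was 1.23 (FDR 0.374 by edgeR, standard error 0.28), and TSHB passed in edgeR's gene-wise exact test (FDR 0.0218) but not in DESeq2. SP samples ranged from 47.0 to 664 CPM, overlapping both days, and LP day 28 samples from 921 to 1580 CPM. The common subunit CGA had 3886 to 11559 CPM at LP day 1, against 5200 to 9125 CPM at LP day 7 (log2 fold change -0.29, standard error 0.21).

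EYA3 (ENSOARG00000003071) had a high fold change and a wide spread. Its lowest, median, and highest levels were 20.4, 44.7, and 75.6 CPM at LP day 1, against 30.9, 186, and 969 CPM at LP day 7. Within LP day 7, samples 1, 3, and 5 had 969, 381, and 332 CPM and samples 2, 4, and 6 had 30.9, 39.2, and 41.2 CPM. The first 3 lay above every LP day 1 sample and the last 3 within the LP day 1 range. This gave a log2 fold change of 2.66 (FDR 0.585 by edgeR, standard error 0.71). At LP day 28 the gene again split, with 407, 123, and 471 CPM in samples 1, 3, and 5. Samples 2, 4, and 6 of LP day 28 had 37.6, 58.5, and 46.8 CPM.

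Apart from CHGA, described with the SP markers, the other members were not past an unadjusted p of 0.05. TSHR, the receptor for the hormone, had 16.3 to 94.9 CPM at LP day 1, against 11.7 to 115 CPM at LP day 7. PDE10A, a phosphodiesterase that degrades cyclic nucleotides, stood at a log2 fold change of 0.22 (standard error 0.38). MTNR1A, the melatonin receptor that marks the PT, was detected at a median of 3.25 CPM at LP day 1, against 13.1 CPM at LP day 7, with samples near 0 in both groups (log2 fold change 1.51, standard error 0.79, unadjusted p = 0.074 in edgeR's test). The genes used to check for PT tissue, TSHB, CGA, MTNR1A, TSHR, and EYA3, were thus all detected, with MTNR1A low. TSHB and CGA do not mark the PT alone, as the paper also reports TSHB protein in thyrotrophs of the pars distalis. The part of each tissue in their levels was not tested. Of 20 genes of cAMP and melatonin signalling only PDE10A and MTNR1A could be paired, and 0 of these reached an unadjusted p of 0.05 in edgeR's test.

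In the list of thyroid hormone handling, 5 of 11 genes were tested, and 1 was higher and 0 lower at an unadjusted p under 0.05, with a median log2 fold change of 0.40. This was SLCO1C1 (ENSOARG00000020436), a transporter that carries thyroxine into brain and vessels. It had 45.6, 58.4, and 136 CPM at LP day 1, against 96.9, 135, and 180 CPM at LP day 7, with LP day 1 sample 5, at 136 CPM, far above the other LP day 1 samples. Between the days the log2 fold change was 0.92 (FDR 0.484 by edgeR, standard error 0.23). Without LP day 1 sample 5 it was 1.28 with an FDR of 0.00383. DIO2, the deiodinase that makes active thyroid hormone, had 5.93 to 24.7 CPM at LP day 1, against 10.6 to 31.0 CPM at LP day 7 (log2 fold change 0.40, standard error 0.31).

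The genes that mark SP had lower medians at LP day 7, with none called by the quasi-likelihood test of edgeR and 2 of them, CHGA and SOX14, called by DESeq2. The study named 5 such genes, in part from these samples, so their direction is not independent evidence. All 5 log2 fold changes were negative, with a median of -1.28, and 4 of the 5 were lower at an unadjusted p under 0.05. CHGA (ENSOARG00000013347), the granule protein chromogranin A, had 1774, 2875, and 3548 CPM at LP day 1, against 1299, 1447, and 2069 CPM at LP day 7 as lowest, median, and highest level. A total of 5 of the 6 LP day 7 samples stood below all LP day 1 samples. The log2 fold change was -0.86 (FDR 0.178 by edgeR, standard error 0.17). It was -0.83 in samples 1 to 3 alone and -0.89 in samples 4 to 6 alone. CHGA passed in DESeq2 (-0.86, FDR 0.00191) and in edgeR's exact test (FDR 0.00569 with gene-wise dispersions, 0.000466 with a common one). Without LP day 1 sample 2 the quasi-likelihood FDR was 0.0381. SP samples had 2629 to 4292 CPM and LP day 28 samples 793 to 1391 CPM, so the medians of the 4 groups followed the order of days on LP.

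SOX14 (ENSOARG00000015598), a transcription factor of neural development, had 6.87, 13.4, and 26.7 CPM at LP day 1, against 2.71, 5.28, and 6.53 CPM at LP day 7. Its groups did not overlap, and the log2 fold change was -1.28 (edgeR FDR 0.427, standard error 0.30). It passed in DESeq2 (FDR 0.0491) and in the gene-wise exact test (FDR 0.0218). The gene had 9 to 51 counts at LP day 1, against 9 to 24 at LP day 7. SP samples had 6.06 to 34.4 CPM of SOX14 and LP day 28 samples 2.42 to 16.4 CPM, overlapping both days. NPSR1, the receptor for neuropeptide S, stood at -1.44 (standard error 0.43, FDR 0.738) and C1orf110 at -1.58 (standard error 0.53, FDR 0.882). Both had medians under 7 CPM at LP day 1 and overlapping groups. PAQR6, a membrane progestin receptor, stood at -0.48 (standard error 0.31, FDR 0.895).

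CHGA also belongs to the list of dense-core secretory granule genes, of which 8 of 23 were tested. There 2 were lower and 0 higher at an unadjusted p under 0.05, and the median log2 fold change was 0.02. The other lower member, CHGB (ENSOARG00000017942), chromogranin B, had 1751, 3328, and 3952 CPM at LP day 1, against 1910, 2257, and 3059 CPM at LP day 7 (log2 fold change -0.46, standard error 0.17, FDR 0.882, edgeR). The prohormone convertases, which cut peptide hormones to their active form, stood close to 0, PCSK1 at 0.01 (standard error 0.28) and PCSK2 at 0.13 (standard error 0.35).

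The circadian clock list had 13 tested genes of 24. At an unadjusted p under 0.05, 6 were higher and 1 lower, 53.8% of the list beside 16.9% of the genes with a symbol, and the median log2 fold change was 0.40. The higher members numbered 7 without LP day 7 sample 3 and 4 without LP day 1 samples 3 and 4. ARNTL2 (ENSOARG00000019779), a paralog of the activator BMAL1, had 0 to 0.937 CPM at LP day 1, against 1.48, 3.02, and 9.93 CPM at LP day 7 as lowest, median, and highest level. The groups did not overlap and the log2 fold change was 2.63 (edgeR FDR 0.202, standard error 0.55), but LP day 1 samples held only 0 to 3 counts, at or under the detectable level, against 5 to 39 at LP day 7. Its fitted fold change depends on the prior count and is no bound. ARNTL2 passed in edgeR's gene-wise exact test (FDR 0.00794). LP day 28 samples had 3.41 to 11.3 CPM. CIART (ENSOARG00000020795), a repressor of the clock activators, had 6.56, 10.1, and 12.4 CPM at LP day 1, against 10.4, 25.4, and 58.6 CPM at LP day 7 (log2 fold change 1.76, standard error 0.43, FDR 0.468). BHLHE41, another repressor, stood at 1.38 (standard error 0.37), NR1D1, which encodes the nuclear receptor REV-ERB alpha, at 1.01 (standard error 0.40), DBP, a PAR-domain activator, at 0.55 (standard error 0.23), and PER3, a period gene, at 0.40 (standard error 0.17). ARNTL, which encodes BMAL1 itself, was the lower gene, with 33.9 to 66.9 CPM at LP day 1, against 27.2 to 42.7 CPM at LP day 7 (log2 fold change -0.59, standard error 0.17).

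The clock genes separated samples within LP day 7. Samples 1, 3, and 5 had 458, 257, and 298 CPM of NR1D1, whereas samples 2, 4, and 6 had 67.7, 84.8, and 77.9 CPM. For CIART the same samples had 58.6, 37.0, and 58.6 CPM against 10.4, 11.8, and 13.7 CPM. CRY1 (ENSOARG00000017816), a repressor that peaks in another phase of the day, ran the other way, with 23.8, 23.2, and 23.2 CPM in the odd samples and 302, 298, and 229 CPM in the even ones. At LP day 1, CRY1 was low in samples 1 and 6, at 28.3 and 34.5 CPM, and between 209 and 282 CPM in the other 4. NR1D1 at LP day 1 lay between 68.7 and 152 CPM and CIART between 6.56 and 12.4 CPM in all 6 samples. CRY1 stood at a log2 fold change of -0.19 (standard error 0.68). The split was not particular to LP day 7. At LP day 28 CRY1 had 29.3, 28.7, and 16.9 CPM in the odd samples and 242, 138, and 156 CPM in the even ones. On SP it had 22.5 and 22.8 CPM in samples 1 and 3, and 206, 237, and 406 CPM in samples 2, 4, and 5.

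No time of day is given for single samples in the sources used here. Several of the other genes named here separated the same samples. EYA3 was high in the odd samples of LP day 7, as given above. KAL1, which encodes the secreted cell-adhesion protein anosmin-1, had 38.0, 33.4, and 69.2 CPM in the odd samples of LP day 7 and 7.72, 7.79, and 9.26 CPM in the even ones. At LP day 1 it was high in samples 1 and 6, at 29.9 and 31.4 CPM, and between 2.97 and 6.92 CPM in the others. At LP day 28 the odd samples again had more KAL1, at 43.7, 44.6, and 35.3 CPM against 12.3, 12.4, and 13.3 CPM in the even ones. KAL1 stood at a log2 fold change of 0.88 (standard error 0.57, edgeR FDR 0.895). GADD45G, a growth arrest gene, had 2.61, 2.11, and 1.27 CPM in the odd samples of LP day 7 and 15.1, 12.4, and 10.3 CPM in the even ones. TSHB was the higher in the even samples of LP day 7, at 684, 1151, and 666 CPM against 452, 380, and 289 CPM. At LP day 28 the odd and even samples overlapped for TSHB. The part that time of collection had in these differences was not tested.

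DCT, VMO1, and ADAMTS16 passed the FDR threshold with odd or even sample number as a covariate, and with CRY1 level as a covariate. When the effect of the day was further allowed to differ between odd and even samples, the average effect over both kinds passed for 9 genes. These were the 3 genes, CIART (log2 fold change 1.42, FDR 0.0124), BHLHE41 (1.09, FDR 0.0124), TSHB (1.16, FDR 0.0188), CYP4V2 (0.88, FDR 0.0203), EYA3 (1.61, FDR 0.0462), and ENSOARG00000003744, which has no symbol here (1.68, FDR 0.0462, edgeR's quasi-likelihood test throughout). The odd and even split was known from the LP day 7 values of these same samples, CIART and EYA3 among them, so these added calls are not independent of it. At LP day 1 CRY1 and KAL1 set samples 1 and 6 apart, not the odd from the even. For EYA3 the average covers even LP day 7 samples that lie within the LP day 1 range.

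**Figure D3:**
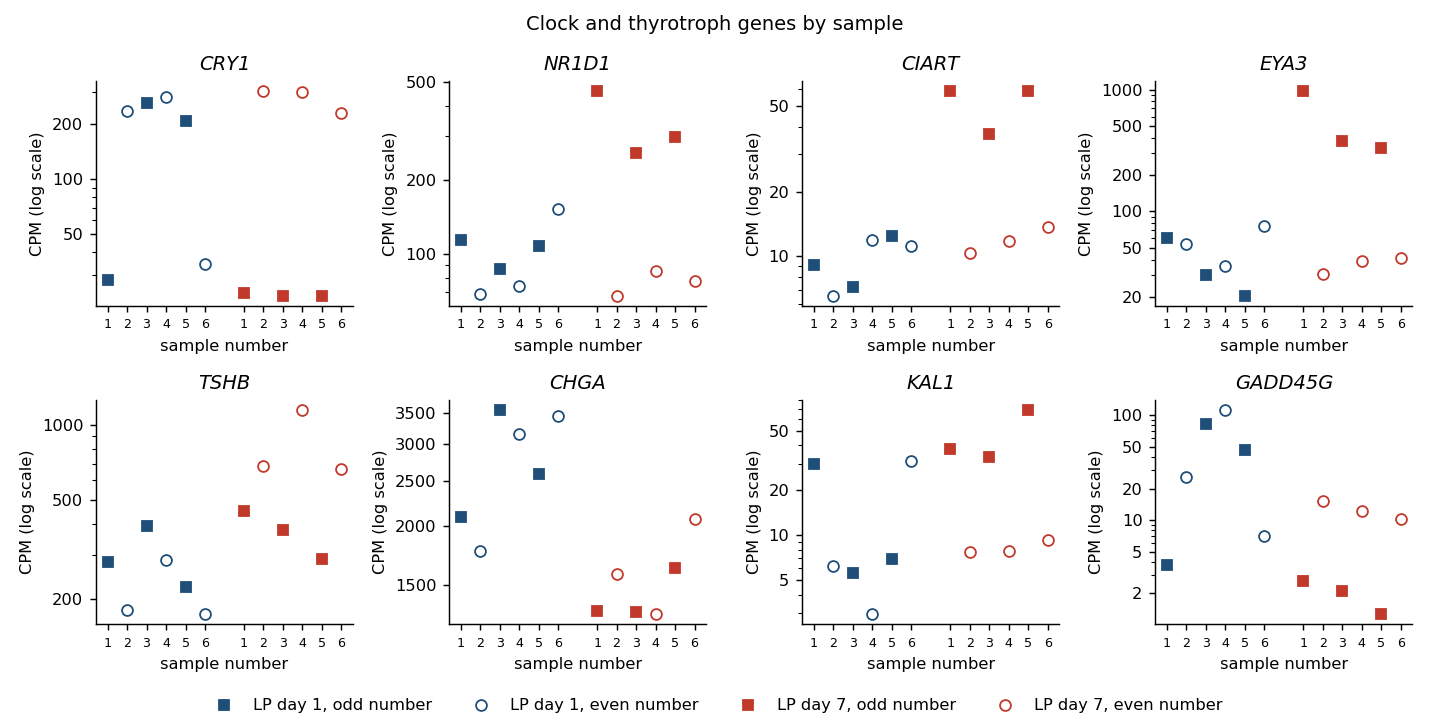
Levels in CPM (log scale) of 8 genes in each LP day 1 (blue) and LP day 7 (red) sample, with filled squares for odd and open circles for even sample numbers. At LP day 7 the odd samples are high for NR1D1, CIART, EYA3, and KAL1 and low for CRY1, TSHB, and GADD45G. CHGA shows no such split.

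Morphogens and guidance genes were followed because the study asks whether photoperiod remodels the PT. SHH (ENSOARG00000006942), the morphogen sonic hedgehog, was the only 1 of 16 hedgehog genes with a paired identifier. It had 18.3, 38.8, and 62.3 CPM at LP day 1, against 65.5, 80.0, and 105 CPM at LP day 7 as lowest, median, and highest level. No LP day 7 sample overlapped the LP day 1 range. This gave a log2 fold change of 1.13 (FDR 0.484 by edgeR, standard error 0.28). It was 1.21 in samples 1 to 3 alone and 1.01 in samples 4 to 6 alone. The gene had 8.37 to 17.8 CPM on SP and 22.3 to 55.8 CPM at LP day 28, so LP day 7 held the highest levels.

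In the axon guidance list 7 of 44 genes were tested, 1 higher and 0 lower at an unadjusted p under 0.05, with a median log2 fold change of 0.38. PLXNA4 (ENSOARG00000006427), a semaphorin receptor, had 5.31, 6.52, and 7.65 CPM at LP day 1, against 8.31, 14.5, and 16.9 CPM at LP day 7. The groups did not overlap, and the log2 fold change was 1.03 (edgeR FDR 0.202, standard error 0.21). When all 4 groups were fitted together the edgeR FDR was 0.0348, and in the gene-wise exact test it was 0.0322. SP and LP day 28 samples had 5.51 to 8.18 and 6.29 to 7.87 CPM, both close to LP day 1. NTN4, a netrin, stood at 0.38 (standard error 0.20), EPHA3, an ephrin receptor, at 0.52 (standard error 0.37), and SEMA3D, a secreted semaphorin, at -0.19 (standard error 0.38). SEMA3D had only 1 to 10 counts per sample over both days.

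The 5 tested genes of the 37 in the WNT list were all secreted ligands or inhibitors. All 5 log2 fold changes were negative, with a median of -0.41, and 0 of the 5 reached an unadjusted p of 0.05 in edgeR's test, beside 16.9% of genes with a symbol. DESeq2 called none of them at its FDR. Without LP day 1 samples 3 and 4, 2 of the 5 were lower at an unadjusted p under 0.05 in edgeR's test, with a median of -0.67. WIF1, WNT inhibitory factor 1, had 19.4 to 129 CPM at LP day 1, against 29.5 to 78.4 CPM at LP day 7 (log2 fold change -0.34, standard error 0.33). SFRP4, a secreted frizzled-related protein, stood at -0.49 (standard error 0.25). WNT4, the ligand, stood at -0.26 (standard error 0.44).

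**Figure D4:**
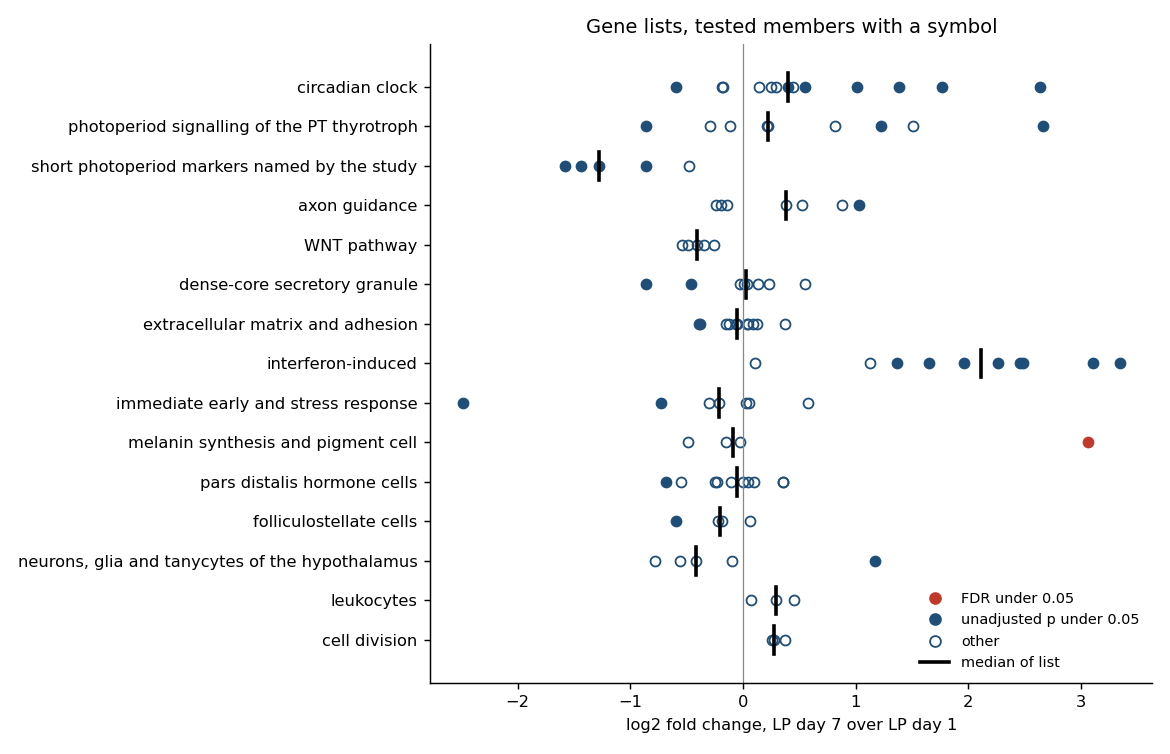
Log2 fold changes of LP day 7 over LP day 1 for the tested members of 15 gene lists. Each point is a gene, filled red past the FDR threshold and filled blue at an unadjusted p under 0.05, and the black bar is the median of the list. DCT, at 3.07, is the only red point among these lists. The SP markers lie left of 0, with a median of -1.28, and the interferon-induced genes lie right of it, with a median of 2.11. That median is -0.59 without LP day 7 sample 3, in a fit that keeps LP day 1 sample 5, the highest of its day.

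The remaining genes whose groups did not overlap have various roles. CYP4V2 (ENSOARG00000008195), a fatty acid hydroxylase, had 58.6, 67.9, and 97.5 CPM at LP day 1, against 101.2, 132, and 195 CPM at LP day 7 (log2 fold change 0.92, standard error 0.18, FDR 0.178, edgeR). CYP4V2 passed in 6 of 21 alternatives, among them DESeq2 (FDR 0.00191), the gene-wise exact test (FDR 0.00575), and edgeR with CRY1 (FDR 0.00187) or GH1 (FDR 0.0298) as a covariate. LP day 28 samples, at 149 to 242 CPM, lay higher again by their median of 232 CPM. APOA1 (ENSOARG00000002586), the main protein of high-density lipoprotein, had 145, 191, and 250 CPM at LP day 1, against 84.8, 121, and 134 CPM at LP day 7 (log2 fold change -0.70, standard error 0.14, FDR 0.202). APOA1 passed in DESeq2 (FDR 0.00347) and in the gene-wise exact test (FDR 0.0158). SP and LP day 28 samples, at 104 to 293 and 116 to 159 CPM, overlapped both days.

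MTF1, the metal-responsive transcription factor, had 4.06 to 8.90 CPM at LP day 1, against 9.95 to 14.8 CPM at LP day 7 (log2 fold change 0.86, standard error 0.21). KLF10, a transcription factor induced by TGF-beta, had 48.8 to 75.6 CPM at LP day 1, against 77.6 to 92.0 CPM at LP day 7 (0.48, standard error 0.12). SORL1, a sorting receptor for endosomes, had 159 to 196 CPM at LP day 1, against 202 to 247 CPM at LP day 7 (0.33, standard error 0.09). Of these 3 the smallest FDR was 0.484. On the lower side CORIN, a membrane protease that processes natriuretic peptides, had 43.1 to 89.0 CPM at LP day 1, against 16.5 to 40.2 CPM at LP day 7 (log2 fold change -0.76, standard error 0.20, FDR 0.596). KLHDC8B, a kelch-repeat protein, had 106 to 144 CPM at LP day 1, against 77.3 to 104 CPM at LP day 7 (-0.42, standard error 0.11, FDR 0.585). The 14 genes with a symbol and no overlap were DCT, VMO1, ADAMTS16, CYP4V2, PLXNA4, ARNTL2, MTF1, SHH, KLF10, and SORL1 on the higher side and APOA1, SOX14, KLHDC8B, and CORIN on the lower. The other 26, 10 higher and 16 lower, have no symbol here.

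**Figure D5:**
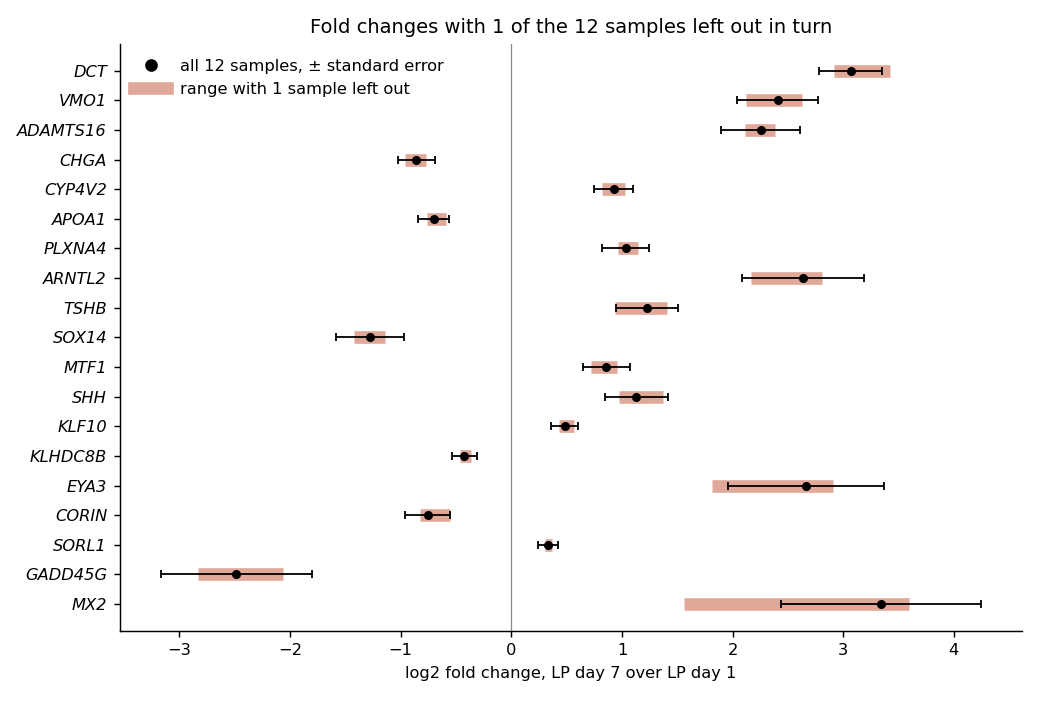
Log2 fold change of LP day 7 over LP day 1 for 19 genes, as estimated from all 12 samples (points, with 1 standard error) and as the range when 1 sample is left out in turn (shaded bars). DCT stays between 2.92 and 3.43 and CHGA between -0.96 and -0.77, while MX2 runs from 1.56 to 3.59 and EYA3 from 1.82 to 2.91.

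The interferon-induced list rested on 1 sample. Of its 15 genes 10 were tested, 8 higher and 0 lower at an unadjusted p under 0.05, with a median log2 fold change of 2.11. The summed level of the 10 genes was 6023 CPM in LP day 7 sample 3 and 189 to 276 CPM in the other 5 LP day 7 samples. At LP day 1 it was 695 CPM in sample 5 and 166 to 243 CPM in the others. At an unadjusted p under 0.05, 1 of the 10 was higher and 4 were lower without LP day 7 sample 3, with a median of -0.59. That fit kept LP day 1 sample 5, and no fit left out both samples. Without LP day 1 samples 3 and 4 the count was 1 higher and 0 lower. MX2, an antiviral GTPase, had 805 CPM in LP day 7 sample 3 and 14.5 to 79.9 CPM in the others of LP day 7. At LP day 1 it had 0 CPM in the similar samples 3 and 4, and 11.2 to 27.7 CPM in the others. The log2 fold change was 3.34 (standard error 0.90, FDR 0.596). Without LP day 7 sample 3 the log2 fold change of MX2 was 1.56. RSAD2, or viperin, had 104 CPM in that sample and 2.90 CPM or less in the others, and its log2 fold change of 3.11 became -0.58 without it. MX1, IFIT1, and other members belong to families of like sequence whose reads the counting could split. All 3 genes past the FDR threshold kept their calls without LP day 7 sample 3.

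Immediate early and stress response genes gave 2 lower and 0 higher of 7 tested at an unadjusted p under 0.05, with a median log2 fold change of -0.21. GADD45G (ENSOARG00000007786) had 3.74, 36.3, and 113 CPM at LP day 1, against 1.27, 6.45, and 15.1 CPM at LP day 7 as lowest, median, and highest level (log2 fold change -2.48, standard error 0.68, FDR 0.620, edgeR). Its LP day 1 values, like those of CRY1, were lowest in samples 1 and 6, at 3.74 and 7.10 CPM. NR4A1, an orphan nuclear receptor, had 111 to 282 CPM at LP day 1, against 78.5 to 163 CPM at LP day 7 (-0.73, standard error 0.23).

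Extracellular matrix and adhesion genes stood near 0. Of 11 tested, 1 was lower and 0 higher at an unadjusted p under 0.05, with a median log2 fold change of -0.06. The lower member was SPARCL1, a matricellular protein of glia and vessels, with 976 to 1913 CPM at LP day 1, against 847 to 1378 CPM at LP day 7 (-0.38, standard error 0.16, FDR 0.882). For cell division 3 genes of 25 were tested and 0 reached an unadjusted p of 0.05 in edgeR's test or the threshold in DESeq2. MKI67, a marker of cycling cells, had 0.507 to 12.4 CPM at LP day 1, against 6.32 to 12.7 CPM at LP day 7 (0.26, standard error 0.38). CDT1, CDC45, CDK6, and CDC25C, which control the cell cycle, had no paired identifier and were not analysed here.

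The markers of neighbouring cells varied widely within both days. The 10 tested genes of pars distalis hormone cells, the main pituitary lobe, summed to 46716 to 271223 CPM at LP day 1, against 46636 to 176812 CPM at LP day 7, and 0 of the 10 were at 0 in all samples. Of these 1 was lower and 0 higher at an unadjusted p under 0.05, with a median log2 fold change of -0.05. PRL, which encodes prolactin, took 2.69% to 18.6% of all counts at LP day 1, against 2.35% to 13.98% at LP day 7 (log2 fold change -0.23, standard error 0.50). LHB, the luteinizing hormone subunit of gonadotrophs, was the lower member, with 1550, 4739, and 8829 CPM at LP day 1, against 1957, 2873, and 5767 CPM at LP day 7 (-0.68, standard error 0.32, FDR 0.882). FSHB, the subunit of follicle-stimulating hormone, stood at -0.55 (standard error 0.32). GH1, growth hormone of somatotrophs, which some sheep carry in duplicate copies whose reads could be split, stood at 0.35 (standard error 0.33), POU1F1, the factor of lactotrophs, somatotrophs and thyrotrophs, at 0.10 (standard error 0.28), and POMC, the precursor of corticotropin, at -0.11 (standard error 0.29). With the GH1 level as a covariate DCT, VMO1, and ADAMTS16 passed the FDR threshold again.

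The 4 tested folliculostellate genes, which mark the glia-like support cells of the pituitary, summed to 151 to 1546 CPM at LP day 1, against 339 to 887 CPM at LP day 7. Of these 1, FXYD1, a regulator of the sodium pump, was lower at an unadjusted p under 0.05 (log2 fold change -0.60, standard error 0.27, FDR 0.882), and the median was -0.20. The 5 tested genes of hypothalamic neurons and glia summed to 434 to 917 CPM at LP day 1, against 394 to 606 CPM at LP day 7, with 1 higher and 0 lower and a median of -0.42. The higher member was TRH, thyrotropin-releasing hormone, with 1.56 to 20.03 CPM at LP day 1, against 9.02 to 42.5 CPM at LP day 7 (1.17, standard error 0.44, FDR 0.882). The 3 tested leukocyte genes summed to 221 to 320 CPM at LP day 1, against 167 to 503 CPM at LP day 7, with 0 past an unadjusted p of 0.05 in edgeR's test or the threshold in DESeq2. No gene of the lists of endothelium and of red blood cells had a paired identifier. LP day 1 sample 5 had the highest sum for folliculostellate and for hypothalamic genes, at 1546 and 917 CPM. The part of these cells in the differences between the days was not tested.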

How the data were processed

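PT RNA was sequenced from cDNA fragment libraries, and the authors deposited whole-number read counts for each Ensembl sheep gene. The submitters' processing notes name Bowtie, HTSeq, and Oar_v3.1, whereas the file headers resemble featureCounts output on TopHat alignments, so the counting program was not settled. Strand use is not given in the sources used here, so reads of overlapping antisense genes could not be told apart. Groups were taken from the labels.

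The 12 samples were fitted with edgeR 4.0.16 under R 4.3.3 (TMM normalization, genes above 1 CPM in 6 or more samples, glmQLFit and glmQLFTest, Benjamini-Hochberg FDR under 0.05). Fold changes are LP day 7 over LP day 1. Standard errors were obtained from the fold change and its F statistic, as the size of the log2 value over the root of F. CPM values of samples are TMM normalized over all 23 samples. The script was tested on simulated data. Alternatives used DESeq2 1.42.0, limma 3.58.1, other normalizations, filters, and covariates, and each sample left out in turn.

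The members, gene lists, and tests were chosen with earlier results of these data known. Named genes are those past the threshold, in each direction up to 10 genes with a symbol and no overlap, the genes that the study names, up to 2 members in each direction of each list at an unadjusted p under 0.05, and genes that check tissue and time of day. NOV, BHLHE41, PER3, ENSOARG00000003744, and members named beside them in a list to show its range were chosen after their values were seen. Symbols were paired with identifiers through the study's gene tables for 1259 genes, and 29 symbols had more than 1 identifier. A table of current RefSeq genes held 0 Ensembl identifiers and was not used. No coordinates or sequences are given. The authors' own fold changes and p-values were not used.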

Additional observations from a re-analysis of the deposited data

Results flagged for a closer look

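In the groups of 6 samples, 88 sets of values of named genes were examined for a highest or lowest sample far from the others (Dixon's test at the 95% level), and 11 were set apart. That level holds for normal values. These are CPM on a linear scale, of genes chosen in part by their values, so the count is not set against chance. A total of 6 involved LP day 7 sample 3, the sample with high interferon-induced genes. It was the highest for MX2 at 805 CPM (next 79.9), RSAD2 at 104 CPM (next 2.90), C1orf110 at 4.21 CPM (next 1.71), LHB at 5767 CPM (next 3277), and FSHB at 699 CPM (next 427). The same sample was the lowest for CORIN, at 16.5 CPM (next 35.7). LP day 1 sample 2 was the highest for GH1 at 48124 CPM (next 16677) and POU1F1 at 289 CPM (next 107). LP day 1 sample 5 was the highest for SLCO1C1 at 136 CPM (next 62.3), LP day 1 sample 1 for CORIN at 89.0 CPM (next 53.8), and LP day 7 sample 1 for EYA3 at 969 CPM (next 381). What sets these samples apart was not tested.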

How the results depend on the processing

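The count of 3 called genes was the same, with all 3 kept, with library size, upper quartile, or median-ratio normalization, without the filter, with edgeR's own filter, at an FDR of 0.1, and with odd or even sample number as a covariate. It was 4 with all groups in a single fit and with GH1 as a covariate, 2 with robust estimation, and 2 in samples 4 to 6 alone. It was 1, DCT, at an FDR of 0.01, with limma and voom, with LP day 1 samples 3 and 4 summed or left out, with the alignment set as a covariate, and in samples 1 to 3 alone. It was 6 with CRY1 as a covariate, 9 with odd or even number and its interaction, 14 with DESeq2 (8 higher, 6 lower), 17 in edgeR's exact test with gene-wise dispersions (12 higher, 5 lower), and 150 in its exact test with a common dispersion (111 higher, 39 lower). The alignment sets, and the list counts without samples in doubt, were added after seeing the data. With each sample left out the count was 1 to 6, and all 3 genes were kept in 3 of 12 fits. The cause of these differences was not tested.

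Same-numbered samples did not deviate together (mean correlation 0.04, range -0.08 to 0.28, and 2 of 6 best matched their own number). With the sample number as a replicate block 4 genes were called, the 3 and PDK4, a gene named after its value was seen.

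Directions that turned were all of uncalled genes. PRL stood at 0.37 with limma and voom and 0.13 with the replicate block, POMC at 0.11 with limma and voom, POU1F1 at -0.0152 with GH1 as a covariate, and POU1F1 and CRY1 at -0.13 and 0.24 without LP day 1 samples 3 and 4. In samples 4 to 6 alone RSAD2 stood at -1.23, SEMA3D at 0.12, and CRY1 at 0.17. With 1 sample left out the log2 fold change ran from -0.59 to 0.36 for PRL, -0.23 to 0.28 for POMC, -0.0121 to 0.57 for POU1F1, -0.58 to 3.37 for RSAD2, and -0.52 to 0.0473 for CRY1.

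Depth limits genes under about 10 CPM in LP day 1 sample 4, ADAMTS16 and ARNTL2 among them.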
